A study of Rattus norvegicus with 3 samples.

Results

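Genes that copy DNA and supply its nucleotides were followed in the neonatal rat retina after an injection of streptozotocin (STZ), a glucosamine nitrosourea that methylates DNA. The genes were 47 listed by name, from origin licensing to deoxynucleotide synthesis, and 46 of them had a row among the 18425 genes of the deposited table. Dna2, a nuclease and helicase of Okazaki fragments, had none. All 46 had a mean of at least 10 reads over the libraries, so none was lost to the filter on low values, which kept 14886 genes of the table.

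Whole retinas of wild-type (WT) Sprague-Dawley rats were sequenced at P4, after an intravitreal injection of 1 μl at P1. There were 3 libraries, 1 for each injection. The buffer library came from eyes given citrate buffer of pH 4.5, the vehicle of STZ, the saline library from eyes given saline, and the STZ library from eyes given 10 μg of STZ in citrate buffer. In the study's intravitreal experiments STZ and buffer went into opposite eyes of a rat, and whether the sequenced buffer and STZ retinas shared rats is not given in the sources used here. The sources used here do not say how many retinas or rats went into a library. With 1 library per condition there is no replicate check and no p-value, and the difference between the saline and buffer libraries is the only measure of how far 2 libraries without STZ lay apart. Both comparisons with STZ share the STZ library, so their values are given side by side.

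The library totals ranged from 21977846 to 22031241 reads. The libraries carried retinal RNA: Pax6, a progenitor and amacrine factor, was listed at 264, 271 and 269 FPKM (fragments per kilobase, corrected for the depth of the library) in buffer, saline and STZ, and Crx, a photoreceptor factor, at 384, 349 and 409 FPKM. RNA of other eye tissues differed between the libraries. In the order buffer, saline and STZ, the summed reads of 9 lens markers were 261, 575 and 2599, and those of 10 pigment and ciliary epithelium markers were 2576, 9617 and 2649. Their part in the results was not tested.

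A dividing cell loads the MCM2-7 helicase onto origins in G1 and starts it in S phase, when polymerases, the PCNA clamp, RPA and the enzymes of Okazaki fragments copy both strands. Transcription of most of these genes is switched on at the G1/S boundary by E2F factors, which the Rb family holds back in resting cells. In the retina, progenitor cells are the dividing neural cells, and they still divide in the first days after birth in the rat.

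Of the 39 genes with a promoter in the RefSeq table (build GRCr8, 250 bases before to 50 after the transcript start), 19 held an 8-letter E2F site, which is 48.7%. The letters searched were TTTCCCGC, TTTGGCGC, TTTCGCGC and TTTGCCGC on either strand, and some matches overlap each other. A site stood in 3.92% of the promoters of the 11543 genes, these included, that passed the read minimum and had an entry. Over all 27457 genes with an entry it was 2.25%. Only the first entry of each gene was searched, so any other entry of a gene was left out. All 5 MCM2-7 genes with a promoter entry held at least 1 site. Their matches are shown first because the MCM2-7 genes were the only role group in which every gene was lower in STZ than in both controls. Capitals mark the match, and 10 bases stand on each side. Positions count from the transcript start, and overlapping matches are joined.
Mcm2, bases −14 to −3: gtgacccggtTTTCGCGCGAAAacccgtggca
Mcm3, bases −6 to 2: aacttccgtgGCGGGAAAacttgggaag
Mcm3, bases 14 to 21: cttgggaagtTTTCGCGCcagggaggag
Mcm5, bases −213 to −202: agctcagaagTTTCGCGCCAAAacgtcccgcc
Mcm5, bases −8 to −1: caggttggttTTTCCCGCgaaagtcggc
Mcm6, bases −139 to −128: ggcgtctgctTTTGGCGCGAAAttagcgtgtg
Mcm7, bases −233 to −226: atttcgaaccGCGGGAAAtcgggtgccc
Mcm7, bases −52 to −45: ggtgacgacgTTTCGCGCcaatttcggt
In Mcm2, Mcm6 and Mcm5 a pair of overlapping matches on opposite strands formed a run of 12 capitals. Mcm4 had no promoter entry. The reads were mapped to another build, rn6, so these positions were not compared with them.

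The 46 genes were expressed at moderate to high levels in all libraries. Their median level in buffer, saline and STZ was 28.2, 27.3 and 24.4 FPKM. Orc1 was lowest in each library, at 2.09, 2.24 and 2.01 FPKM, and Pcna was highest, at 150.5, 142.7 and 115.0 FPKM. Reads per gene ranged from 180 to 6445.

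**Figure D1:**
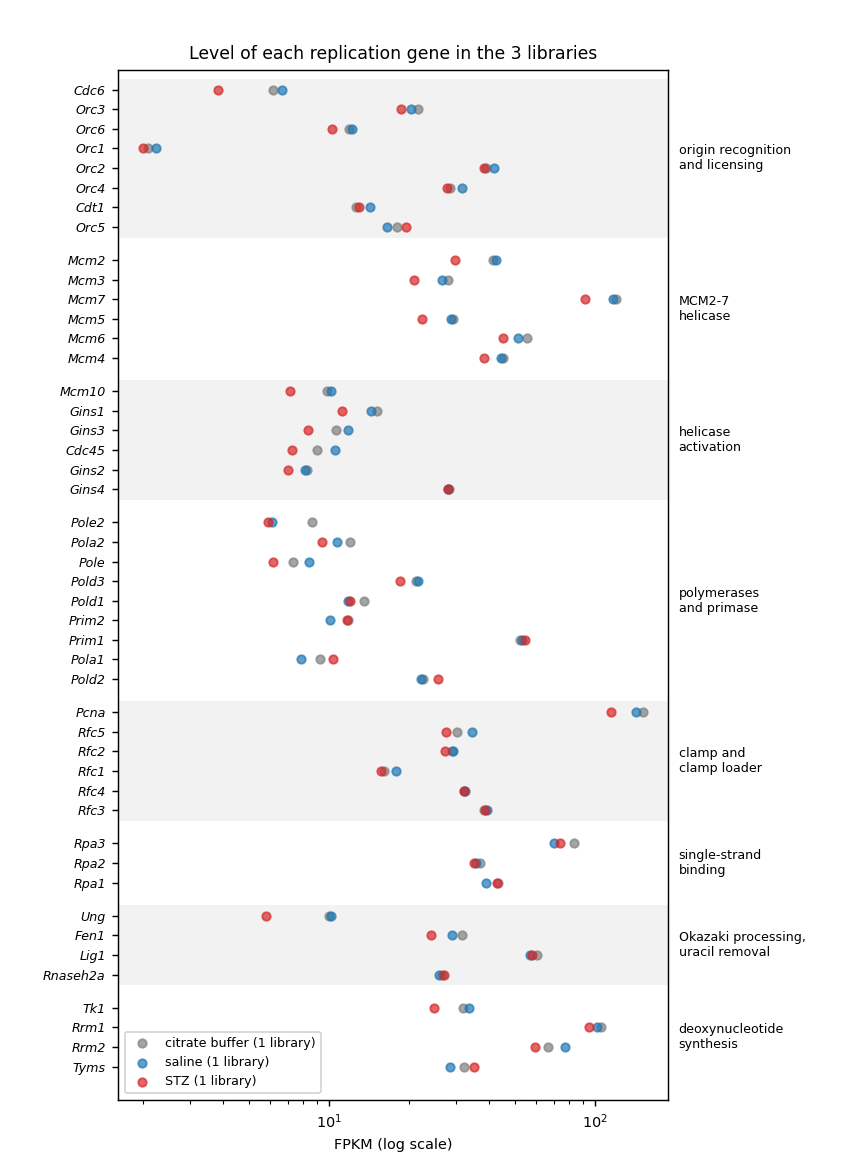
Level of each of the 46 genes in FPKM (log axis) in the citrate buffer, saline and STZ library, 1 point per library, grouped by role. The red STZ points lie left of both control points in all 6 MCM2-7 genes and right of both in 6 genes, among them Pold2 and Orc5.

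Together the 46 genes took a smaller share of the STZ library than of either control. Their summed reads in buffer, saline and STZ were 67183, 66306 and 58900, which is 0.305%, 0.302% and 0.267% of the library totals. The ratio of shares (count ratio) was 0.875 for STZ against buffer, with a 95% counting interval of 0.866 to 0.885, and 0.886 (0.876 to 0.896) against saline. For saline against buffer it was 0.988 (0.977 to 0.998). Such intervals are exact Clopper-Pearson intervals that cover counting error only, since reads that carry no molecular identifier may be copies of 1 molecule, and they compare libraries rather than conditions. In whole tissue, fewer cells of a type and less RNA per cell cannot be told apart.

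Of the 46 genes, 32 had a lower FPKM in STZ than in both controls, against 35.2% of all genes tested. Another 6 were higher than in both controls (Orc5, Pola1, Pold2, Prim1, Rnaseh2a and Tyms), against 44.1% of all genes. The remaining 8 lay between the controls. In 23 genes STZ was below both controls by more than the controls differed, against 20.9% of all genes. In 3 it was above by more than that, against 29.6%: Orc5, Pold2 and Prim1.

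The shift was broad and small. The fold of a gene is (FPKM + 1)/(FPKM + 1), the study's formula, with its thresholds of 0.65 and 1.54. The median log2 fold of the 46 genes was −0.16 in STZ against buffer and −0.18 against saline, beside 0.03 and 0.01 over all 14886 genes. Between saline and buffer it was −0.02, beside 0.02 over all genes. Without regard to sign, the median log2 fold was 0.18 against buffer, 0.20 against saline and 0.08 between the controls. Only 6 genes had an absolute log2 fold above 0.2 between the controls.

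**Figure D2:**
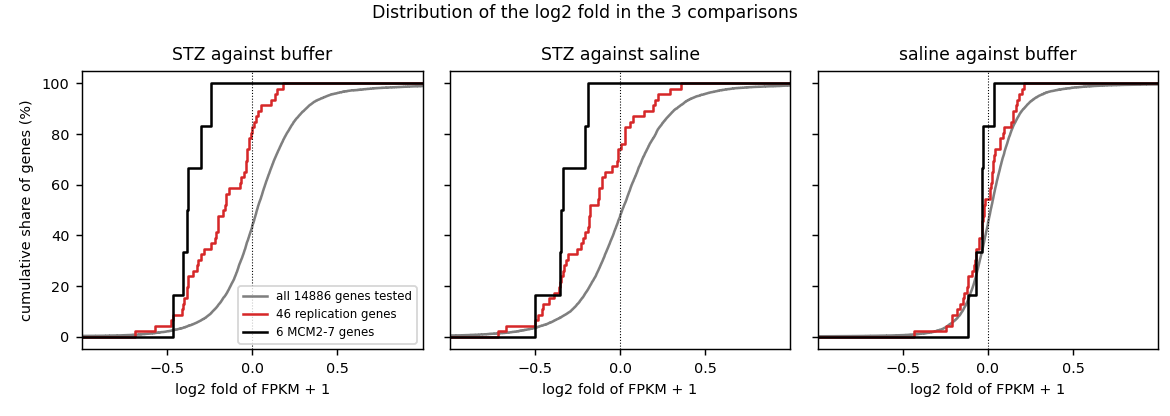
Cumulative share of genes (vertical axis, %) by log2 fold of FPKM + 1 (horizontal axis) for all 14886 genes tested, the 46 replication genes and the 6 MCM2-7 genes, 1 panel per comparison. The red and black curves lie left of the grey curve in both comparisons with STZ, with medians of −0.16 and −0.18 for the 46 genes, and near it between the controls (−0.02).

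Few of the genes passed the study's thresholds. Against buffer, 1 gene was under 0.65 (Ung), where 1.15% of all genes were, and 0 were over 1.54, where 2.58% were. Against saline, 2 were under 0.65 (Ung and Cdc6), where 1.95% of all genes were, and 0 were over 1.54, where 2.37% were. With the study's pseudocount of 1, Ung alone was under 0.65 against both controls, as were 0.726% of all genes. Between saline and buffer 0 of the 46 passed either threshold, where 0.443% of all genes were under 0.65 and 1.01% over 1.54.

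By the counting interval alone, more genes stood apart. The interval lay below 1 for 26 of 46 genes against buffer and above 1 for 2, beside 18.8% and 26.2% of all genes. Against saline it lay below 1 for 26 and above 1 for 6, beside 23.5% and 26.9%. It lay below 1 against both controls for 22 genes, beside 14.8% of all genes, and above 1 for 2 (Pola1 and Pold2), beside 19.4%. With totals scaled by TMM factors the lower bound against buffer was 0.998 for Pola1 and 0.997 for Pold2, so neither stayed above 1 against both controls, while against saline it was 1.19 and 1.03. DESeq2 factors also left 0 genes above 1 against both controls. The controls also differed from each other beyond counting error, with the interval below 1 for 12 of the 46 genes and above 1 for 8 in saline against buffer, beside 12% and 15.9% of all genes.

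**Figure D3:**
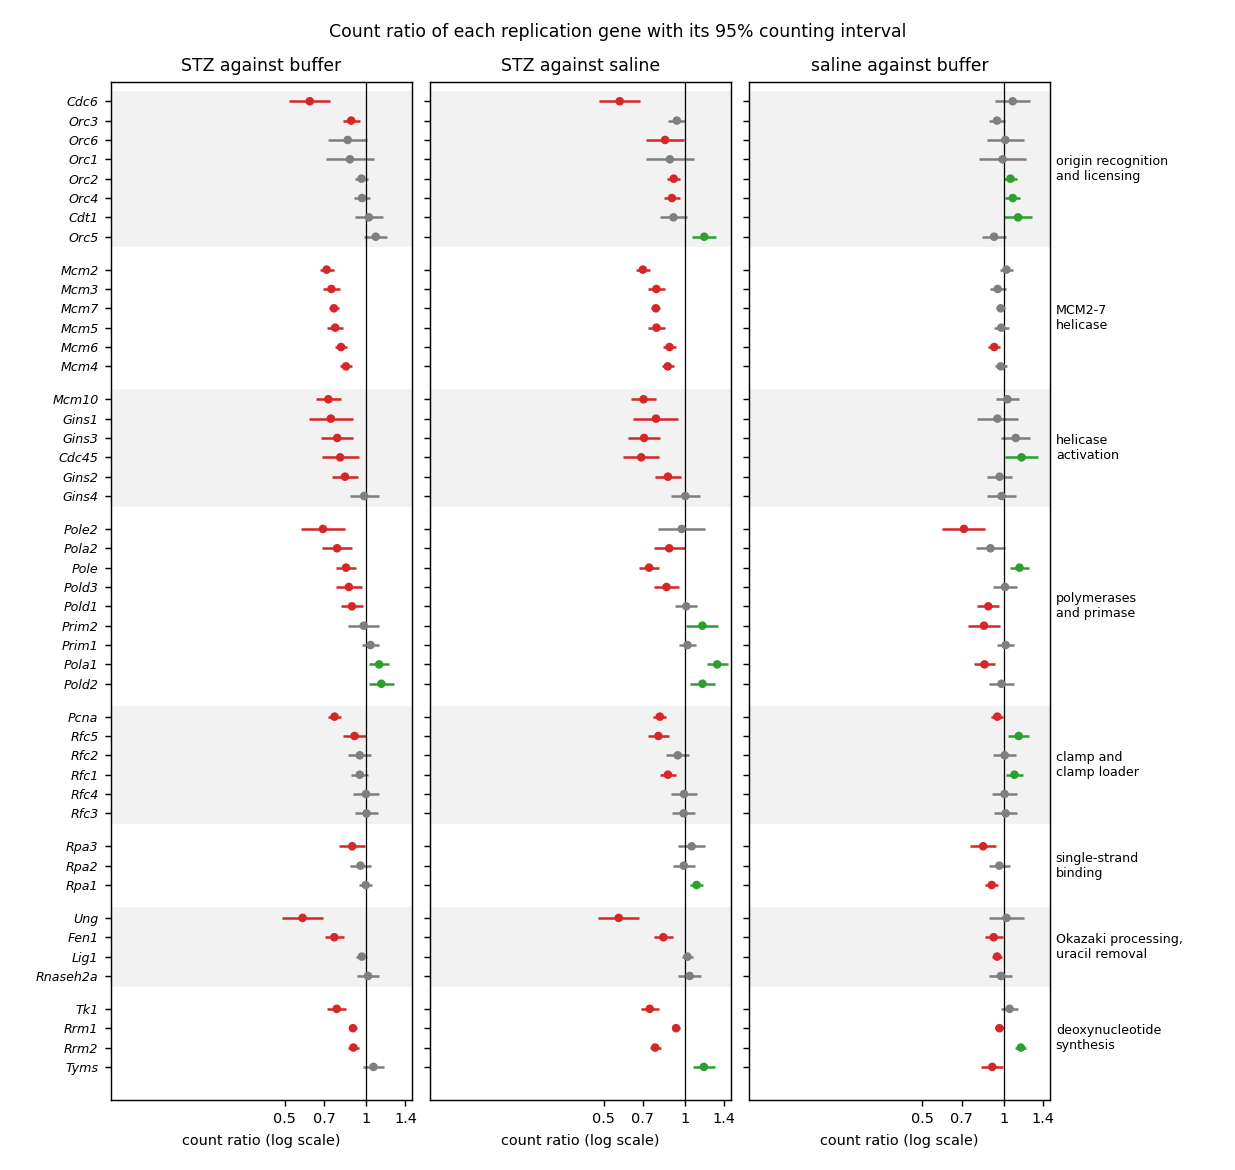
Count ratio of each gene (horizontal axis, log scale) with its 95% counting interval in 3 panels, of which the first and second compare STZ with each control and the third compares the controls, grouped by role. Red intervals lie below 1 and green intervals above 1: 26 are red in each STZ panel, and 12 are red and 8 green between the controls.

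The first role group, origin recognition and licensing, marks origins and loads the helicase. Cdc6, the ATPase that loads MCM2-7 together with the origin recognition complex, stood well apart from the rest of its group. It was listed at 6.18, 6.67 and 3.83 FPKM in buffer, saline and STZ, from 345, 372 and 214 reads. The STZ library was thus low and the controls close. Its fold was 0.673 against buffer and 0.630 against saline, with count ratios of 0.619 (0.520 to 0.736) and 0.574 (0.483 to 0.681).

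The 6 subunits of the origin recognition complex, which binds origins all through the cycle, differed less. Orc1 to Orc4 and Orc6 were all below both controls in STZ, beside 35.2% of all genes. The folds of these Orc genes were 0.863 to 0.978 against buffer and 0.852 to 0.929 against saline. Orc3 was listed at 21.7, 20.3 and 18.6 FPKM and Orc6 at 11.9, 12.2 and 10.3 FPKM in buffer, saline and STZ. In the other 3, Orc1, Orc2 and Orc4, the STZ FPKM lay no farther below the nearer control than the controls lay apart. For Orc1 the reads lay otherwise, at 206, 204 and 180, with the controls close together and STZ below them. Its count ratio was 0.872 (0.710 to 1.07) against buffer and 0.880 (0.716 to 1.08) against saline. Orc5 went the other way, at 18.0, 16.6 and 19.5 FPKM, with folds of 1.08 (buffer) and 1.17 (saline). Its count ratio was 1.09 (0.983 to 1.20) against buffer, an interval that holds 1, and 1.18 (1.07 to 1.31) against saline. Cdt1, which brings MCM2-7 to the origin, was listed at 12.6, 14.3 and 12.95 FPKM, so STZ lay between the controls.

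All 6 genes of the MCM2-7 ring, the motor that unwinds DNA at the fork, were lower in STZ than in both controls, each by more than the controls differed. Over all genes tested that share was 20.9%. The reads of the 6 genes summed to 18380, 17830 and 14286 in buffer, saline and STZ. The count ratio of the sum was 0.776 (0.759 to 0.793) against buffer, 0.799 (0.782 to 0.817) against saline and 0.971 (0.951 to 0.991) between the controls. The median log2 fold of the 6 genes was −0.38 and −0.34, and none passed the 0.65 threshold.

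Mcm2 was lowest by fold. It was listed at 41.5, 42.5 and 29.8 FPKM, a fold of 0.725 and 0.707, with a count ratio of 0.715 (0.674 to 0.758) and 0.699 (0.659 to 0.741). Mcm4 differed least from buffer, at 45.2, 44.1 and 38.1 FPKM, a fold of 0.846 and 0.867, with a count ratio of 0.843 (0.800 to 0.889) and 0.864 (0.820 to 0.911). The 2 control values of both genes lay close together and the STZ value below them.

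Mcm3 was also measured by PCR in the study. Its level was 28.1, 26.7 and 20.9 FPKM, from 1667, 1582 and 1244 reads. Its fold was 0.753 against buffer and 0.791 against saline. Mcm5 at 29.2, 28.6 and 22.3 FPKM and Mcm7 at 119, 117 and 91.2 FPKM had nearly the same folds, 0.770 and 0.766 against buffer and 0.786 and 0.784 against saline. Mcm6, at 55.5, 51.2 and 44.9 FPKM, was the gene of the ring whose controls lay farthest apart, with a fold of 0.924 in saline against buffer. The spread of levels within the ring was kept: Mcm7 was listed at 4.25, 4.37 and 4.37 times the FPKM of Mcm3 in the 3 libraries.

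Of the 6 genes that turn the loaded ring into a running helicase, 5 were lower in STZ than in both controls by more than the controls differed. Over all genes tested that share was 20.9%. Mcm10, which binds the ring as it is activated, was listed at 9.82, 10.1 and 7.12 FPKM in buffer, saline and STZ. Its fold was 0.750 and 0.729, with a count ratio of 0.726 (0.651 to 0.808) and 0.703 (0.631 to 0.783). Cdc45, the helicase cofactor, was listed at 9.05, 10.6 and 7.27 FPKM, a fold of 0.823 and 0.716. Its controls lay apart too, with a fold of 1.15 in saline against buffer.

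The GINS complex holds Cdc45 to the ring, and its 4 subunits were not alike. Gins1 was listed at 15.1, 14.3 and 11.2 FPKM and Gins3 at 10.6, 11.8 and 8.32 FPKM, with folds against buffer of 0.757 and 0.801. Gins2 had a fold of 0.868 and 0.881, and it was the only one of the 46 genes whose deposited count was fractional. Gins4 was level in the libraries, at 28.3, 27.9 and 28.0 FPKM, from 526, 516 and 519 reads, with a count ratio of 0.985 (0.871 to 1.11) against buffer and 1.00 (0.887 to 1.14) against saline. The summed reads of the 6 genes gave a count ratio of 0.813 (0.771 to 0.857) and 0.791 (0.750 to 0.833).

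The polymerases and primase lay on both sides of the controls. Of 9 genes, 4 were below both controls in STZ (Pola2, Pold3, Pole and Pole2), beside 35.2% of all genes. Another 3 were above both (Pola1, Pold2 and Prim1), beside 44.1%, and 2 between them (Pold1 and Prim2). Prim1 was near level, at 52.3, 53.2 and 54.3 FPKM. Its count ratio was 1.04 (0.970 to 1.11) against buffer and 1.02 (0.955 to 1.10) against saline. The summed reads of the 9 genes were 7344, 7034 and 7041 in buffer, saline and STZ. Their count ratio was 0.957 (0.926 to 0.989) against buffer and 0.999 (0.966 to 1.03) against saline. The median log2 fold was −0.15 against buffer and 0.03 against saline.

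Polymerase epsilon copies the leading strand. Its accessory subunit Pole2 had the lowest fold of the group against buffer, but the saline library was nearly as low as STZ. It was listed at 8.63, 6.13 and 5.91 FPKM, from 288, 205 and 200 reads. Its fold was 0.718 against buffer, 0.969 against saline and 0.740 in saline against buffer. The catalytic subunit Pole was listed at 7.36, 8.41 and 6.19 FPKM, a fold of 0.860 and 0.764, with STZ the lowest library.

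Polymerase delta copies the lagging strand. Its small subunit Pold2 had the highest fold against buffer of the 46 genes. It was listed at 22.6, 22.2 and 25.8 FPKM, from 662, 649 and 756 reads. The controls lay close together and STZ above them, with a fold of 1.13 and 1.15 and a count ratio of 1.14 (1.03 to 1.27) and 1.16 (1.04 to 1.29). Pold3 lay the other way, at 21.3, 21.6 and 18.4 FPKM, and the catalytic Pold1 at 13.5, 11.8 and 12.04 FPKM with STZ between the controls.

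Polymerase alpha and primase lay down the primers, and the 2 alpha subunits parted. The catalytic Pola1 was listed at 9.27, 7.88 and 10.4 FPKM, with folds of 1.11 (buffer) and 1.28 (saline), the highest of the 46 genes against saline. The accessory subunit Pola2 was listed at 12.04, 10.8 and 9.41 FPKM, a fold of 0.798 and 0.885. The ratio of Pola1 to Pola2 FPKM was 0.770, 0.732 and 1.10 in the order buffer, saline, STZ. For the primase subunits Prim1 and Prim2 the ratio was 4.42, 5.28 and 4.65, so STZ lay between the controls.

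The clamp was lower in STZ than in both controls, while the loader subunits Rfc3 and Rfc4 were level. Pcna encodes the ring that tethers polymerases to DNA. Its level was 150.5, 142.7 and 115.0 FPKM, from 3074, 2908 and 2355 reads. Its fold was 0.766 and 0.807, with a count ratio of 0.765 (0.724 to 0.807) and 0.808 (0.765 to 0.853). The difference between the controls was smaller, with a fold of 0.948.

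The 5 RFC subunits open the clamp and close it around DNA. Rfc3, with the highest fold of the group against buffer, was listed at 38.4, 39.1 and 38.6 FPKM, a fold of 1.01 and 0.988. Rfc4 was listed at 32.3, 32.5 and 32.2 FPKM. Rfc2 had a fold of 0.950 and 0.941, below both controls by more than they differed, though its counting intervals hold 1. Rfc5 was the lowest subunit against both controls, at 30.2, 34.4 and 27.4 FPKM and a fold of 0.910 and 0.803. Its count ratio was 0.907 (0.824 to 0.998) and 0.798 (0.728 to 0.876), but its controls lay farther apart than STZ from buffer. The same held for Rfc1, at 16.1, 17.9 and 15.6 FPKM.

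The RPA trimer coats single strands in replication and repair, and in it the controls differed more than STZ from the nearer control. Rpa3 was listed at 83.1, 70.0 and 73.8 FPKM, with folds of 0.889 (buffer) and 1.05 (saline). Rpa1 was listed at 43.0, 38.8 and 42.9 FPKM, a fold of 0.997 and 1.10. Rpa2, at 36.8, 35.5 and 35.1 FPKM, was the only 1 of the 3 below both controls. The summed count ratio was 0.969 (0.928 to 1.01) against buffer and 1.07 (1.02 to 1.12) against saline.

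Among the enzymes of Okazaki fragments and uracil removal, Ung had the lowest fold of all 46 genes. It encodes the glycosylase that takes uracil out of DNA. Its level was 10.0, 10.2 and 5.83 FPKM in buffer, saline and STZ, from 353, 361 and 206 reads. The 2 controls were nearly equal and STZ well below them, with a fold of 0.621 and 0.609 and a count ratio of 0.583 (0.488 to 0.694) and 0.569 (0.477 to 0.677).

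Fen1, the flap endonuclease that trims fragment ends, was listed at 31.5, 28.9 and 24.1 FPKM, a fold of 0.770 and 0.838. Lig1, the ligase that joins them, was listed at 60.2, 56.9 and 58.1 FPKM, a fold of 0.966 and 1.02 with STZ between the controls. Rnaseh2a, a subunit of the nuclease that removes primer RNA, had the highest fold of the group against buffer, at 26.6, 25.9 and 26.9 FPKM and a fold of 1.01 and 1.04. Its count ratio was 1.02 (0.923 to 1.12) against buffer and 1.04 (0.945 to 1.15) against saline, and both intervals hold 1. Ung and Fen1 thus lay below both controls, while Lig1 lay between them and Rnaseh2a was near level.

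In deoxynucleotide synthesis, 3 of 4 genes were lower than both controls, beside 35.2% of all genes. Tk1, the thymidine kinase of dividing cells, was listed at 31.9, 33.5 and 24.8 FPKM, from 1420, 1492 and 1109 reads. Its fold was 0.785 and 0.748, with a count ratio of 0.780 (0.720 to 0.844) and 0.741 (0.685 to 0.802). Tyms, which makes thymidylate from deoxyuridylate, was the exception at 32.0, 28.5 and 35.2 FPKM, a fold of 1.10 and 1.22, with STZ the highest library. From 926, 839 and 989 reads, its count ratio was 1.07 (0.974 to 1.17) against buffer, an interval that holds 1. Against saline the ratio was 1.18 (1.07 to 1.29).

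Ribonucleotide reductase makes deoxynucleotides, with Rrm1 as its large and Rrm2 as its S-phase small subunit. Rrm1 was listed at 105, 102 and 94.3 FPKM, a fold of 0.896 and 0.928. Rrm2 was listed at 66.4, 76.9 and 59.6 FPKM, a fold of 0.900 and 0.779. Its controls lay apart by a fold of 1.16, the widest upward gap of the 46 genes between the controls. The ratio of Rrm1 to Rrm2 FPKM was 1.59 in buffer and 1.58 in STZ, with 1.32 in saline.

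The promoters of the extremes are printed whole, with E2F matches in capitals, in the reading direction of the gene. Ung and Pole2 had the lowest and third-lowest fold against buffer, Mcm2 the next, and Pold2 the highest. Cdc6, second in that order, had no promoter entry.
Ung chr12:48153996-48154295, minus strand: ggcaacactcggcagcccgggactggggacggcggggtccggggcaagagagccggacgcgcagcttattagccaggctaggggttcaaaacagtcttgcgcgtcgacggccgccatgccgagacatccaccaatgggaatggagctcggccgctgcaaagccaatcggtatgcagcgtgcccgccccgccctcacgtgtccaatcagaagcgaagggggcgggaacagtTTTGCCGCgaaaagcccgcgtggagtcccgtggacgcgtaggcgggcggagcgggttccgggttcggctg
Pole2 chr6:93435312-93435611, minus strand: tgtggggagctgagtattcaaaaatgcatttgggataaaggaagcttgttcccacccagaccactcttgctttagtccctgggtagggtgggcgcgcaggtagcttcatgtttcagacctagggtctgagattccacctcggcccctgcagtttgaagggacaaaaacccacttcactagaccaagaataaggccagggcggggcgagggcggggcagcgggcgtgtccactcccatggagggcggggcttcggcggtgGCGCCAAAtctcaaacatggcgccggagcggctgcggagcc
Mcm2 chr4:122918045-122918344, minus strand: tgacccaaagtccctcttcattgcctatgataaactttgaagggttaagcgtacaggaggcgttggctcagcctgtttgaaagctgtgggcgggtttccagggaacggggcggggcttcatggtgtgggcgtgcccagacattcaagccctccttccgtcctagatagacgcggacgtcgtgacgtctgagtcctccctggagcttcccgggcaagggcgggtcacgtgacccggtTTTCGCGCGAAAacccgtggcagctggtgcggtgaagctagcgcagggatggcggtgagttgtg
Pold2 chr14:84969047-84969346, minus strand: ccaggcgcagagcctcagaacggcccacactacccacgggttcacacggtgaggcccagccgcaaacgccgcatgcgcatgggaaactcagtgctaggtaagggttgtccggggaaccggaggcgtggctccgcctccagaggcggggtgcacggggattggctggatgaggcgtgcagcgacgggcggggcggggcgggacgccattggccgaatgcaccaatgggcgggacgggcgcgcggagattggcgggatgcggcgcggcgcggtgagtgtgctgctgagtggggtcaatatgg
Ung and Pole2 each held 1 E2F site, Mcm2 held 2 that overlap, and Pold2 held 0. Pold2 held 4 CCAAT boxes and 4 GC boxes, and Ung held 3 and 4.

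Genes with and without an E2F site overlapped in their folds. The median log2 fold was −0.22 against buffer and −0.19 against saline in the 19 genes with a site, and −0.14 and −0.15 in the 20 without. STZ was below both controls in 13 of the 19 and in 14 of the 20, beside 35.2% of all genes tested. Orc5, Tyms and Pola1 held a site and were higher in STZ than in both controls, while Mcm10, Pcna, Fen1 and Tk1 held none and had folds of 0.750 to 0.785 against buffer. Among all genes tested with a promoter entry, the median log2 fold was −0.02 and −0.05 in 452 genes with a site and 0.03 and 0.02 in 11091 without. STZ was below both controls in 209 of the 452 and in 3842 of the 11091. No match says only that these letters are not in this window.

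By role, a site stood in 5 of 5 MCM2-7 promoters, 3 of 5 of origin recognition and licensing, 2 of 5 of helicase activation and 4 of 9 of the polymerases and primase. It stood in 1 of 6 of the clamp and its loader, 1 of 2 of RPA, 2 of 4 of Okazaki processing and uracil removal, and 1 of 3 of deoxynucleotide synthesis. The 28 matches spanned positions −233 to 33, with a median of −17, and 21 began within 100 bases of the transcript start. Other motifs differed less from all expressed genes. The CCAAT box (CCAAT) stood in 56.4% of the 39 promoters and 37.4% of expressed ones, the GC box (GGGCGG) in 64.1% and 61.0%, and the CHR element of G2/M genes (TTTGAA) in 10.3% and 11.6%.

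**Figure D4:**
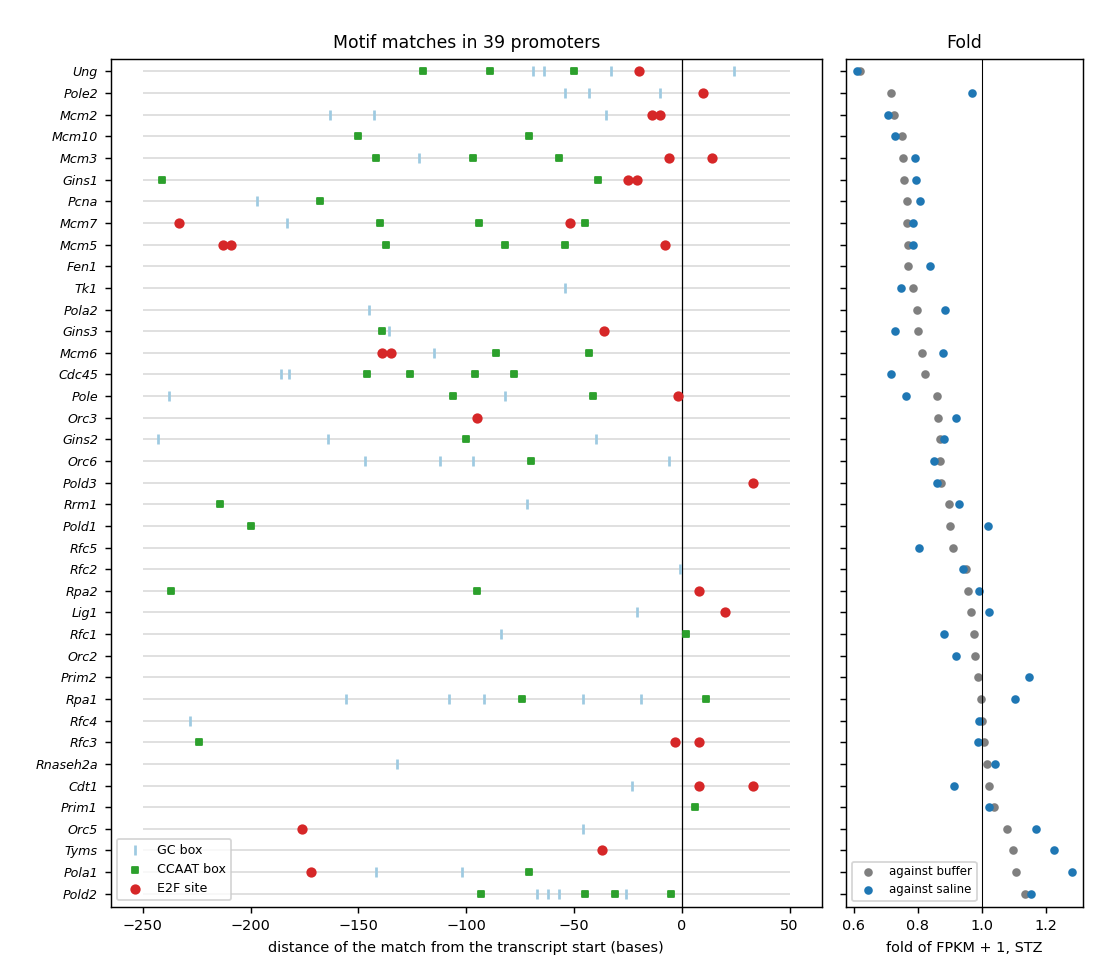
Left, matches of the E2F site, CCAAT box and GC box in 39 promoters by distance from the transcript start in bases, 1 row per gene in order of its fold against buffer. Right, the fold of FPKM + 1 of the same genes in STZ against buffer and against saline. E2F matches stand in 19 rows, from the lowest fold (Ung) to the second highest (Pola1).

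Related genes outside the list were set beside the 46. Of 27 other replication factors, 21 were below both controls in STZ, beside 35.2% of all genes, and 1 above (Pole4), beside 44.1%. Their median log2 fold was −0.13 and −0.16, close to that of the 46 genes. Uhrf1, which brings Dnmt1 to newly copied DNA, was lowest at 45.6, 42.2 and 30.02 FPKM, a fold of 0.666 and 0.718. Pole4, a histone-fold subunit of polymerase epsilon, was highest against buffer at 20.5, 21.0 and 23.2 FPKM, a fold of 1.13 and 1.10. Against saline Top1 was highest, with a fold of 1.30. None of the 27 passed a threshold in either comparison with STZ.

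Other nucleotide synthesis genes, most of them in pathways that serve RNA as well as DNA, did not share the shift. Of 29 genes, 8 were below both controls, beside 35.2% of all genes, and 13 above, beside 44.1%. Their median log2 fold was 0.06 and 0.08. The counting interval lay above 1 against both controls for 10, beside 19.4% of all genes. Among them were Nme1, Nme2, Cad, Ctps1 and Impdh2. The lowest was Dck, the salvage kinase of deoxycytidine, at 24.0, 29.3 and 19.1 FPKM, a fold of 0.806 and 0.665. The highest against buffer was Nme2, a nucleoside diphosphate kinase, at 177, 198 and 221 FPKM, a fold of 1.25 and 1.11. Against saline Nme1 was highest, with a fold of 1.27. Nme1 and Nme2 are close copies, and reads with several genomic positions had been discarded.

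Genes of mitosis and G2/M lay on both sides of the controls. Of 21 genes, 8 were below both controls, beside 35.2% of all genes, and 7 above, beside 44.1%. Their median log2 fold was −0.06 against buffer and 0.01 against saline, where scaling by TMM or DESeq2 factors gave −0.01. Mki67, the antigen of dividing cells, was lowest at 66.5, 66.5 and 45.6 FPKM, a fold of 0.690 against each control. Ccnb1, the mitotic cyclin B1, was highest at 29.2, 30.5 and 38.2 FPKM, a fold of 1.30 and 1.24. STZ was thus below the controls for 1 of these proliferation genes and above for the other.

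Of 16 E2F and Rb regulators, 12 were below both controls, beside 35.2% of all genes. Another 3 were above (Rb1, Rbl2 and Tfdp1), beside 44.1%. Their median log2 fold was −0.16 and −0.24. E2f1, an activator of G1/S genes, was lowest at 42.1, 48.9 and 28.1 FPKM, a fold of 0.674 and 0.583, the latter under the 0.65 threshold. The highest against buffer was Rbl2 (p130), at 14.6, 14.1 and 15.2 FPKM, a fold of 1.04 and 1.07.

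**Figure D5:**
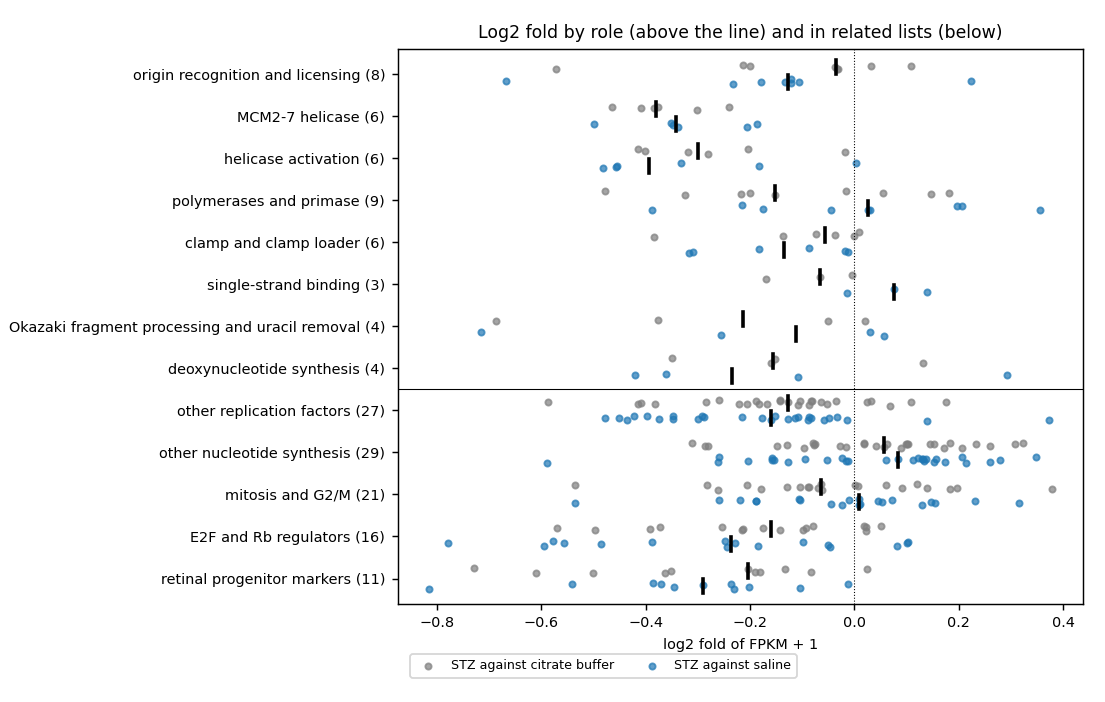
Log2 fold of FPKM + 1 of each gene in STZ against buffer (grey) and against saline (blue), with black bars at the medians, by role of the 46 genes above the line and for related lists below it; numbers of genes stand in parentheses. The MCM2-7 points all lie left of 0, with medians of −0.38 and −0.34, while polymerases, G2/M genes and other nucleotide synthesis genes stand on both sides.

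Markers of retinal cells differed as well. Of 11 retinal progenitor markers, 10 were below both controls in STZ, beside 35.2% of all genes. The median log2 fold of the 11 was −0.20 and −0.29, and their summed reads were 48627, 50393 and 40479 in buffer, saline and STZ. Lhx2, a progenitor transcription factor, was lowest at 66.1, 70.2 and 39.5 FPKM, a fold of 0.603 and 0.568. Pax6, which maturing amacrine and ganglion cells also express, was not below both controls. Of 7 photoreceptor precursor markers, 4 were above both controls (Crx, Nrl, Nr2e3 and Rcvrn), beside 44.1% of all genes, and 3 below, beside 35.2%. The 7 had 54181, 50615 and 53906 summed reads.

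Markers of other cells the tissue could hold also differed. All 10 microglia markers were above both controls, beside 44.1% of all genes, with 1365, 1693 and 3864 summed reads. All 6 endothelial markers were below both, beside 35.2% of all genes, with 13754, 15095 and 10125 summed reads. The 2 blood markers that passed the read minimum summed to 955, 1266 and 698 reads, a count ratio of 0.730 (0.661 to 0.805) against buffer and 0.550 (0.501 to 0.604) against saline. Of the lens markers 8 of 9 were above both controls, beside 44.1% of all genes. Of the pigment and ciliary epithelium markers 4 of 10 were below both, beside 35.2% of all genes, none by more than the controls differed, and the saline library was the high one. Some defining markers were at or near 0: Rpe65 of the pigment epithelium had 0, 2 and 2 reads, and the lens crystallin Crybb2 had 0, 3 and 6. Microglia and endothelial cells can divide and so can carry replication genes. The part of these cells in the lower levels of the replication genes was not tested.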

How the data were processed

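Total RNA of dissected retinas was made into TruSeq libraries. Per the study's methods and the submitters' processing notes, reads passed FastQC, were trimmed, and were mapped to rn6 with TopHat2 allowing 2 mismatches. Multi-mapped reads were discarded, and FPKM came from a custom R script. Strand use and the annotation are not given in the sources used here. The authors deposited FPKM, TPM and an estimated count per gene and library. For 5 of the 46 genes the reads per FPKM differed by over 2% between the libraries, most in Orc1, by a factor of 1.10. Of the estimated counts as deposited, 12.9% were fractional in buffer, and all were rounded here.

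The fold was (FPKM + 1)/(FPKM + 1), with a pseudocount of 1 and thresholds of 0.65 and 1.54. The count ratio divides a gene's share of 1 library by its share of another, with a 95% interval by the Clopper-Pearson method. The 14886 genes whose mean reached 10 counts gave the background. No count model was fitted, since each group had 1 library. TMM factors came from edgeR 4.0.16 and size factors from DESeq2 1.42.0 (R 4.3.3). The rest used Python 3.11.15, numpy 2.4.6, pandas 2.3.3, scipy 1.17.1 and matplotlib 3.10.9. The steps were first tested on simulated counts with known changes.

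The genes, their 8 role groups, the 4 related lists (other replication factors, other nucleotide synthesis, mitosis and G2/M, E2F and Rb regulators) and the marker lists (retinal progenitor, photoreceptor precursor, microglia, lens, pigment and ciliary epithelium, endothelial, blood) were chosen with earlier results of these data known. Fgf15, a progenitor marker, had no row. Blood markers were summed over genes past the read minimum only. The counts against both controls were chosen after seeing the data. Full values were given for the lowest and highest fold against buffer in each role group, every gene past a threshold, Pcna and Mcm3, and in each related list for the lowest and highest fold. Other genes were named beside their group after their values were seen. Promoters of the 3 lowest and the highest fold were to be printed. Motifs were searched on both strands of the RefSeq promoters, in the first of the 33469 entries for each of 27457 genes. Protein sequences were not analysed here.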

Additional observations from a re-analysis of the deposited data

How the results depend on the processing

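The alternatives were a pseudocount of 0.1, FPKM scaled by TMM or DESeq2 factors, CPM computed from the counts, TPM as deposited, a minimum mean of 50 counts, thresholds of 2 and 0.5, the counting interval in place of the fold, the averaged controls, and a 7-letter E2F core. The median log2 fold of the mitosis and G2/M genes against saline changed sign, from 0.01 to −0.01 with TMM or DESeq2 factors. No result past a threshold changed direction. Of the alternatives, 140 of 156 for the comparisons and 633 of 634 for single genes and role groups stayed within their limits. Those limits were set by counting intervals or, for numbers of genes, by a fixed factor. At the median gene against buffer, the upper bound was 1.21 times the lower bound, wide beside a median log2 fold of −0.16. All 46 genes had a mean of at least 50 counts, so that alternative repeated the reported value. Numbers that were 0 in both settings also counted as unmoved, so the tallies are a weak check. The number of genes under 0.65 against buffer, 1 in the report, was 2 with a pseudocount of 0.1, with CPM or with TPM, 0 with thresholds of 2 and 0.5, and 26 by the counting interval. Against saline, 2 became 0 with thresholds of 2 and 0.5 and 26 by the interval. The number over 1.54 was 0 and became 2 by the interval against buffer and 6 against saline. In saline against buffer, 0 and 0 became 12 and 8. Apart from those with the pseudocount, CPM and TPM, these changes follow from how the rules are built. The gene added in those settings was Cdc6, listed at 6.18 and 3.83 FPKM in buffer and STZ. Its fold against buffer was 0.673 with the pseudocount of 1, which weighs more at low FPKM, and its count ratio was 0.619. Scaled by TMM, the summed ratio of the 46 genes was 0.851 against buffer (0.875 in the report) and 0.875 against saline (0.886). The number with the interval above 1 against both controls, 2 in the report, was 0 with TMM or DESeq2 factors. The share of promoters with an E2F site, 48.7% in the report, was 69.2% with the 7-letter core, which stood in 17.0% of expressed promoters. The median log2 fold of the 46 genes ranged from −0.20 to −0.16 against buffer, −0.19 to −0.17 against saline and −0.05 to −0.02 between the controls. The sign also changed in some alternative for 5 genes against buffer (Cdt1, Prim2, Rfc3, Rpa1 and Rnaseh2a) and 1 against saline (Gins4), none with an absolute log2 fold above 0.032.

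No paired analysis was possible because each group had 1 library, and none had a replicate to leave out. The planned search of the proteins for a PCNA-binding motif was not run, since no protein sequences were used here. Counting intervals limit what depth can show for a gene, and the difference between the 2 controls, 1 library each, is a single draw of the spread between libraries.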
